A study of Mus musculus with 20 samples.

Results

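The 10 neutrophil granule genes S100a8, S100a9, Ly6g, Ngp, Camp, Ltf, Mpo, Elane, Mmp8 and Retnlg were followed across 20 mouse diaphragms. They were found by the gene names of the array, where 12 of 55681 noncontrol probes carried a member's name (2 each for Camp and Mpo, 1 for each other gene). Each gene was represented by its brightest probe, and all 10 of these passed the filter on dim probes that left 36920 probes for testing. The mice were female C57Bl/6 animals, injected into the pleural cavity at 8 weeks of age and killed 12 weeks later, with 4 mice in each of 5 groups and 1 array per mouse. The control group received 100 μL of the vehicle, saline with 0.5% bovine serum albumin (BSA), and the fibers of the other groups were dispersed in the same vehicle. LFA mice received 25 μg of amosite asbestos enriched for long fibers, and SFA mice 25 μg of the same asbestos ground short. NTL and NTS mice received 5 μg of long or short carbon nanotubes, so the asbestos and nanotube doses differ. No group carried a transgene or a deletion, and the frozen diaphragm is a mixture of muscle, pleural surface and whatever cells lay in or on it. Levels are log2 intensities relative to the 75th percentile of the array, so 0 is the level of a fairly bright spot, and levels of different genes are not compared because each probe has its own brightness.

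Neutrophils store antimicrobial proteins in granules that are filled in order as the cell matures in the bone marrow. Primary granules come first and hold myeloperoxidase (Mpo), which makes hypochlorous acid, and neutrophil elastase (Elane), a serine protease. Secondary granules follow, with lactotransferrin (Ltf), which binds iron, the cathelicidin peptide (Camp) and neutrophilic granule protein (Ngp). Collagenase (Mmp8) cleaves fibrillar collagen and is stored in the later granules. S100a8 and S100a9 form calprotectin, the abundant calcium- and metal-binding protein of the neutrophil cytosol. Ly6g is the surface antigen by which mouse neutrophils are commonly recognized, and Retnlg is a resistin-like protein of marrow and blood neutrophils. Most mRNA for the primary and secondary granule proteins is made by precursors and is scarce in mature cells. In whole tissue, fewer cells of a type and less RNA per cell cannot be told apart.

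Promoters are shown first, because transcription of granule genes in myeloid precursors is classically ascribed to PU.1 and C/EBP factors and because several members moved together. All 10 genes were matched in the RefSeq promoter table (GRCm38.p6), which gives 250 bases before and 50 bases after a gene's start. The 8-letter PU.1 core GAGGAAGT, sought on both strands, lay in 5 of the 10 genes (S100a8, Ly6g, Mpo, Elane and Mmp8) and in 3.2% of all 32851 promoters. The C/EBP-type pattern TTNNGNAA lay in 7 of the 10 genes and in 40.7% of all promoters. The motifs were picked after the sequences had been looked at, and a match is a description of letters. The promoter of S100a8 (chr3:90668821-90669120, plus strand) holds the core on its reverse strand 172 bases before the start. That of Mpo (chr11:87793534-87793833, plus strand) holds it 224 bases before the start. In Elane (chr10:79886062-79886361, plus strand) it begins 85 bases before the start, and in Mmp8 (chr9:7558179-7558478, plus strand) 221 bases before, on the reverse strand. Capitals mark the core.
S100a8: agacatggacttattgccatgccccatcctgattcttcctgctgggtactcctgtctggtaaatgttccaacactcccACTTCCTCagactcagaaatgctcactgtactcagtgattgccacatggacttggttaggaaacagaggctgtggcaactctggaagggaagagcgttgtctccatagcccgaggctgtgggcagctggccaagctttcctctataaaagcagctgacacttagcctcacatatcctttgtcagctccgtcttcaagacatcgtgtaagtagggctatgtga
Mpo: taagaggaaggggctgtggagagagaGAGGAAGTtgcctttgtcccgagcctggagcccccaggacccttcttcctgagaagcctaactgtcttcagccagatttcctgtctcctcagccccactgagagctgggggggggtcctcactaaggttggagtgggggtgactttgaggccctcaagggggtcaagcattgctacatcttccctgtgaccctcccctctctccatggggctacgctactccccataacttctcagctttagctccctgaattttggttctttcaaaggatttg
Elane: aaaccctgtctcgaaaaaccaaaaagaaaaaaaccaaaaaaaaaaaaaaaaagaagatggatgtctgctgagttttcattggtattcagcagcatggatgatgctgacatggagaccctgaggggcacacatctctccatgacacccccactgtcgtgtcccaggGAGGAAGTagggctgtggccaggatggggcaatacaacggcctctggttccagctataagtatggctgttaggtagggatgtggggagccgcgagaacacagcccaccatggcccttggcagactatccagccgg
Mmp8: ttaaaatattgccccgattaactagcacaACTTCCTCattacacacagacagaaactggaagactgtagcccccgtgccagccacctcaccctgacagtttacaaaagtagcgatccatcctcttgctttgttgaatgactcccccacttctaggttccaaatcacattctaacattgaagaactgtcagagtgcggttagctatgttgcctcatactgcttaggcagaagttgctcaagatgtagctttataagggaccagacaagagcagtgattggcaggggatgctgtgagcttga
The core did not divide the genes by behavior, since S100a8, Mpo and Mmp8 varied together with Camp, Ltf, Ngp, S100a9 and Retnlg, which lack it in this window, and Elane and Ly6g, which hold it, did not follow them.

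The genes varied widely between mice of the same group. The median within-group SD of the 10 was 1.10 on the log2 scale, where that of all tested probes was 0.58, and Ngp, Camp, Ltf and Mpo were above the 90th percentile of all tested probes. The probes lie on NCBI37, the build of the array design: S100a9 at chr3:90496573-90496632, S100a8 at chr3:90473778-90473837, Camp at chr9:109749911-109749970, Ltf at chr9:110942873-110942932, Mpo at chr11:87617840-87617899 and Elane at chr10:79350902-79350961. The Ngp probe maps across an intron, from chr9:110324266 to chr9:110324814. Exon and untranslated region are not given for the other probes in the sources used here.

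S100a9 was well above background on all 20 arrays. In replicates 1 to 4, its log2 level was 2.66, 4.07, 5.77 and 4.70 in control mice and 5.82, 2.53, 2.53 and 3.99 in SFA mice. It was 5.62, 5.53, 4.72 and 4.88 in LFA mice, 2.81, 2.83, 3.34 and 4.45 in NTS mice and 3.22, 5.07, 3.86 and 3.86 in NTL mice. The highest mouse of all was an SFA mouse, and every group overlapped the control group. Over the 4 control mice alone, which received vehicle, the level differed by 8.64-fold between the lowest and the highest mouse. Its partner S100a8 ranged from 0.42 to 4.00 in control, 0.21 to 3.99 in SFA, 2.58 to 4.02 in LFA, 1.25 to 2.56 in NTS and 1.56 to 3.21 in NTL mice. The highest mouse was the same for both genes in every group, and the lowest differed in SFA and NTS.

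Mpo, the marker enzyme of primary granules, varied most within groups, with a within-group SD of 2.06 (larger than that of 98.1% of tested probes). Its log2 level was -3.28, -2.51, 1.18 and 0.16 in control mice and 0.79, -5.47, -4.18 and -2.60 in SFA mice. It was 0.77, 1.65, 0.32 and -2.21 in LFA mice, -4.51, -4.58, -5.63 and -1.13 in NTS mice and -2.13, -0.34, -3.99 and -0.70 in NTL mice. Control mice 3 and 4, SFA mouse 1 and LFA mice 1 to 3 were above 0, and all others were below. The spot was well above background on 18 of 20 arrays, so 2 of these low values, 1 in SFA and 1 in NTS, are near the floor of the measurement. The second Mpo probe was dimmer and well above background on 8 arrays, and followed the first with Pearson r = 0.83 over 20 mice.

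Among the secondary granule genes, Camp shared its highest mouse with Mpo in every group but LFA, whereas Ngp and Ltf had other mice at the top or bottom of some groups. Camp had log2 levels of -0.22, 1.19, 3.80 and 1.94 in control, 3.73, -2.09, -0.91 and 0.92 in SFA and 3.04, 2.96, 1.75 and 0.67 in LFA mice. In NTS mice they were -1.06, -1.02, -1.56 and 1.82, and in NTL mice -0.97, 2.19, -0.07 and 1.32. The highest and lowest SFA mice were 56.7-fold apart, and the 2 Camp probes, which overlap on the genome, correlated with r = 0.996 over the 20 mice. Ngp was -2.45, -4.10, 1.11 and -0.12 in control, -1.56, -4.58, -4.27 and -1.45 in SFA and 0.26, 0.34, -3.36 and -3.24 in LFA mice. It was -3.39, -3.28, -3.20 and -2.86 in NTS and -3.12, -3.10, -2.77 and -1.56 in NTL mice. All 8 nanotube-injected mice were thus below the upper 2 control and the upper 2 LFA mice, whereas LFA split into 2 high and 2 low animals. The 2 low LFA mice shared an array slide that held neither of the 2 high ones, so animal and slide cannot be told apart in this split. Ltf spanned -2.17 to 1.90 in control, -6.64 to 0.54 in SFA, -1.54 to 1.48 in LFA, -4.71 to -0.80 in NTS and -2.06 to -0.74 in NTL mice. Ltf was well above background on 19 of 20 arrays (3 of 4 in SFA). Ngp was on 18 (3 of 4 in control and 3 of 4 in SFA), so some of the lowest values of both are near the floor of the measurement.

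Mmp8 and Retnlg showed smaller ranges. Retnlg had log2 levels of -0.80, -2.65, -2.35 and -1.54 in SFA and 0.55, 0.33, -0.72 and -1.05 in LFA mice, and it ranged from -3.01 to 0.33 in control, -2.07 to -0.91 in NTS and -2.0 to -0.27 in NTL mice. The LFA and SFA mice overlapped, since SFA mouse 1 lay above LFA mouse 4. Mmp8 was well above background on 17 arrays and ranged from -5.20 to -2.50 in control, -5.60 to -2.21 in SFA, -2.88 to -1.85 in LFA, -5.01 to -2.77 in NTS and -4.34 to -2.27 in NTL mice.

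**Figure D1:**
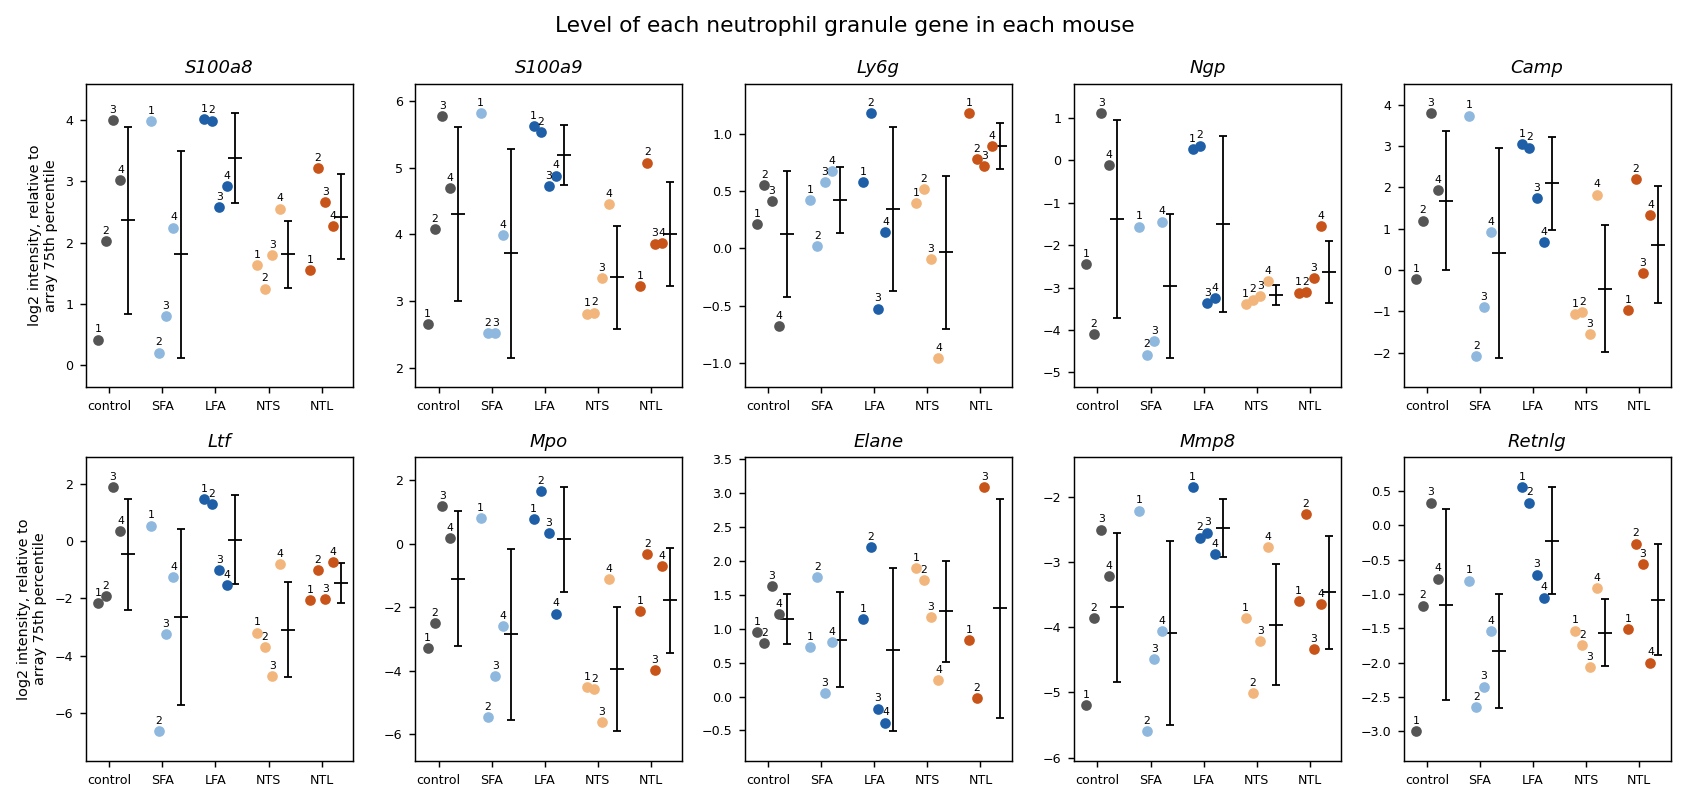
Log2 intensity relative to the array's 75th percentile for each gene (vertical axes differ between panels) in the 5 groups. Points are mice with their replicate numbers, and black bars are the group mean and SD of 4 mice (3 for Elane in NTL). Control mouse 3 is at the top of its group in 9 of the 10 panels.

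The values of Ly6g and Elane differed from these. Ly6g had log2 levels of 0.21, 0.55, 0.42 and -0.68 in control, 0.42, 0.02, 0.58 and 0.68 in SFA and 0.58, 1.18, -0.53 and 0.14 in LFA mice. They were 0.39, 0.52, -0.09 and -0.96 in NTS and 1.19, 0.78, 0.72 and 0.89 in NTL mice. The 4 NTL mice were above all control and all NTS mice, and the whole range over 20 mice was 4.41-fold. Elane was 0.95, 0.79, 1.63 and 1.22 in control, 0.74, 1.76, 0.05 and 0.80 in SFA and 1.14, 2.20, -0.18 and -0.38 in LFA mice. It was 1.89, 1.72, 1.18 and 0.24 in NTS mice and 0.83, -0.02 and 3.10 in NTL mice 1 to 3, the spot of NTL mouse 4 being marked as an outlier and dropped from the fit. Elane did not follow Mpo, its partner in primary granules, across mice (r = -0.20, rho = -0.21, permutation p = 0.415 for r, 19 mice). Whether the Elane probe measures its transcript well was not tested, and its values are uncertain in that respect.

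The Ly6g probe lies at chr15:74989023-74989082 (NCBI37) in a cluster of related Ly6 genes. Of all other probes on the array, the one with the longest shared stretch (28 bases, in capitals) lies at chr15:75066100-75066159 on an unnamed transcript. Both are printed because the shared letters bear on what the Ly6g values measure.
Ly6g probe: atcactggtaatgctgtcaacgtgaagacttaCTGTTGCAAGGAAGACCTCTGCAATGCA
Unnamed transcript probe: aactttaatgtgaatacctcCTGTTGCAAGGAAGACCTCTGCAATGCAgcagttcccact
Over the 48 aligned bases the probes differ at 9, and their levels correlated with r = 0.59 over the 20 mice. Whether transcripts of related Ly6 genes also bind the Ly6g probe was not tested, and its values are uncertain in that respect.

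The remaining 8 genes rose and fell together from mouse to mouse, a pattern noticed in the values above and then quantified on them. Of the 45 pairs of the 10 genes, 28 had a permutation p for Pearson's r under 0.05 after Benjamini-Hochberg adjustment over the 45, and these were exactly the 28 pairs that exclude Ly6g and Elane. Among them r ran from 0.56 (Ngp with Mmp8) to 0.97 (S100a8 with S100a9), with a median of 0.86, and Spearman's rho from 0.51 to 0.97. S100a8 and S100a9 gave r = 0.97 and rho = 0.95 over 20 mice (permutation p = 1e-05, the smallest that 100000 permutations can give, and adjusted p = 3e-05). S100a9 with Mpo gave r = 0.89 and rho = 0.87 (same permutation p), and Ngp with Mmp8 r = 0.56 and rho = 0.51 (permutation p = 0.011 for r, adjusted p = 0.0177). Without the 2 mice farthest from the median of the first gene, the 28 values lay between 0.49 and 0.97. With group means removed they lay between 0.52 and 0.97, and within the slides of 8 and 7 arrays between 0.71 and 0.97 and between 0.57 and 0.98. The slide of 5 arrays holds too few mice for a value. The 17 pairs with Ly6g or Elane had r between -0.33 and 0.31, and 0 of them passed.

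**Figure D2:**
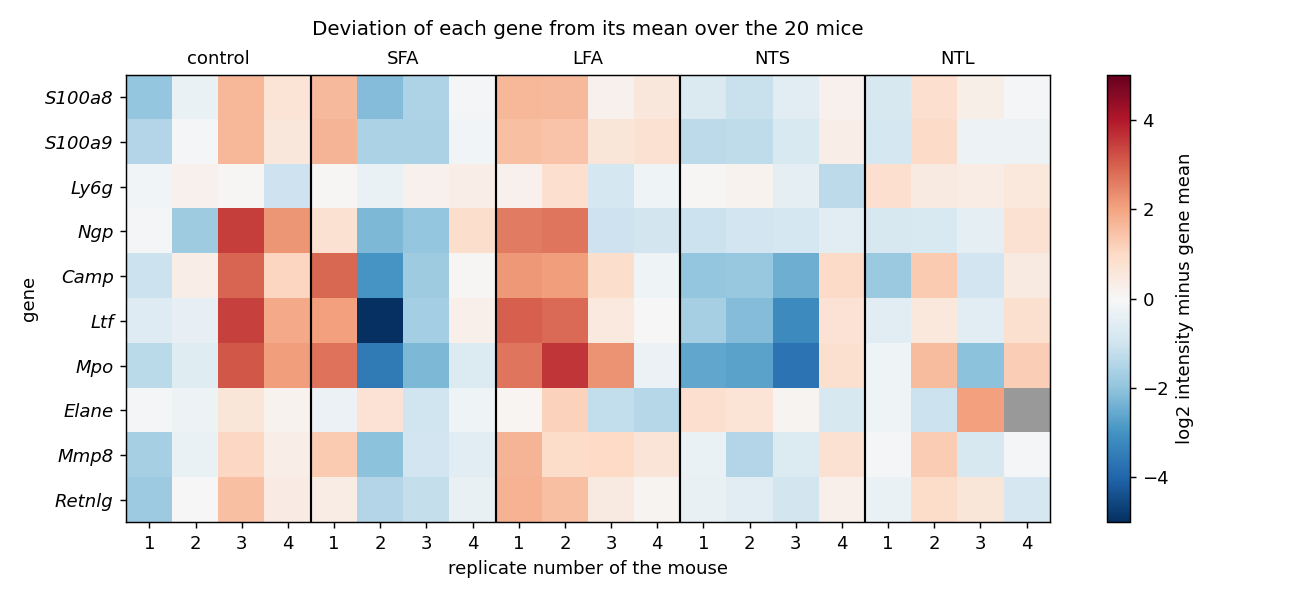
Deviation of each gene's log2 intensity from its own mean over the mice (color), with genes in rows and the 20 mice in columns by group and replicate number. Gray marks the dropped Elane value. The 8 genes other than Ly6g and Elane all lie above their means in control mice 3 and 4, SFA mouse 1 and LFA mice 1 and 2. All lie below in control mouse 1, SFA mice 2 and 3, NTS mice 1 to 3 and NTL mouse 1.

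Genes outside the 10 followed the same mice. For S100a9, the non-member genes with the most similar levels over the 20 mice were Ctsg (r = 0.92), which encodes the primary granule protease cathepsin G, Itgb2l (r = 0.89), an integrin beta subunit of neutrophils, and Ms4a3 (r = 0.84), a marker of granulocyte-monocyte precursors. For Mpo they were Itgb2l (0.92), Ctsg (0.91) and Ms4a3 (0.88). Retnlg was closest to Ctsg (0.80), Apol8 (0.79) and Itgb2l (0.78), and Ngp to Cd177 (0.76), a neutrophil surface protein, Fcnb (0.75), a ficolin of neutrophil granules, and Arhgef18 (0.75). These are descriptions, chosen as the highest among all tested probes with a gene symbol, and carry no test.

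The control comparisons ask whether fibers left these genes changed in the diaphragm 12 weeks after injection. In LFA against control, 0 of the 10 genes were called by limma (at least a 2-fold change and an adjusted p under 0.05), where 3.96% of all 36920 tested probes were called. Of the 10 genes 8 were higher and 2 lower, none with an unadjusted p under 0.05 (24% of all tested probes), and the median log2 change was 0.70 where that of all tested probes was -0.28. S100a9 had a mean of 5.19 ± 0.45 (SD, n = 4) in LFA and 4.30 ± 1.30 in control, a log2 change of 0.89 ± 0.69 (SE; 95% interval -0.57 to 2.35; limma adjusted p = 0.447). Mmp8 had the smallest p of the 10, with a log2 change of 1.22 ± 0.67 (95% interval -0.19 to 2.62; limma adjusted p = 0.273). For Mpo the 95% interval ran from 0.339-fold to 16.6-fold, so changes of either direction fit the values. Within slides, the LFA minus control difference was positive for 10 of 10 genes on the slide with 1 LFA mouse and control mice 1 and 2. It was positive for 3 of 10 on each of the other 2 slides, which held control mouse 3 or 4 alone. The mean level of the 10 genes was -1.21 and -0.49 in control mice 1 and 2, but 1.76 and 0.66 in control mice 3 and 4. Slide and control mouse thus cannot be told apart in these differences.

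In NTL against control, again 0 of the 10 were called, where 6.8% of all tested probes were. Genes divided evenly, 5 higher and 5 lower, with a median of -0.12 against -0.25 for all tested probes, and 0 had an unadjusted p under 0.05 (23.5% of all tested probes). S100a9 had a mean of 4.01 ± 0.77 (SD, n = 4) in NTL mice and a log2 change of -0.29 ± 0.69 (SE; limma adjusted p = 0.846). Ngp had a log2 change of -1.25 ± 1.06 (limma adjusted p = 0.522). Ly6g was the only member whose groups did not overlap (0.90 ± 0.21 in NTL, 0.13 ± 0.55 in control), as held for 20.2% of all tested probes, and its log2 change of 0.77 ± 0.37 had a limma adjusted p of 0.221. Within slides, 6 of 10 genes were higher in NTL on the slide with 1 NTL mouse and control mice 1 and 2. On the slide with 3 NTL mice and control mouse 3 alone, 1 of 10 was higher.

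The short fibers gave 0 called members against control as well, in both SFA and NTS, and 0% of all tested probes were called in either comparison. In SFA, 9 of 10 genes were lower, with a median log2 change of -0.63 and no unadjusted p under 0.05 (2.3% of all tested probes). Within slides, however, 8 of 10 were higher on the slide with 2 SFA and 2 control mice (median 0.37), and 9 of 10 were lower on the slide with 2 SFA mice and control mouse 3 alone (median -2.50). NTS had 9 of 10 lower too, with a median of -0.75, and 1 gene, Mpo, with an unadjusted p under 0.05 (3.52% of all tested probes). Mpo had a mean of -3.96 ± 1.96 (SD, n = 4) in NTS and -1.11 ± 2.13 in control, a log2 change of -2.85 ± 1.34 (SE; limma adjusted p = 1.0). Within slides, 5 of 10 were lower in NTS on the slide with 2 NTS mice and control mice 1 and 2. On the slide with 2 NTS mice and control mouse 4 alone, 9 of 10 were lower. Each of the 10 genes overlapped between SFA and control and between NTS and control, where 1.46% and 1.51% of all tested probes did not.

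Fiber length was compared at equal dose. In LFA against SFA, 0 of the 10 genes were called, where 1.16% of all tested probes were, but 5 genes (S100a9, Ltf, Mpo, Mmp8 and Retnlg) had an unadjusted p under 0.05, as did 12.6% of all tested probes. Since the genes varied together, the 5 are not separate observations. The median log2 change of the 10 was 1.59, with -0.17 for all tested probes, and 8 genes were at least 2-fold higher on average. Retnlg had means of -0.22 ± 0.78 in LFA and -1.84 ± 0.83 in SFA (SD, n = 4 each), a log2 change of 1.61 ± 0.61 (SE; 95% interval 0.34 to 2.88; limma adjusted p = 0.277). For Mpo it was 3.0 ± 1.34 (95% interval 0.19 to 5.80; limma adjusted p = 0.362), and for Ltf 2.70 ± 1.26 (adjusted p = 0.387). Mpo, Ltf and Mmp8 were each well above background on only 3 of the 4 SFA arrays, so their changes rest in part on values near the floor. LFA and SFA overlapped for all 10 genes, where 9.05% of all tested probes did not overlap, and SFA mouse 1 lay within or above the range of the LFA mice for each of the 10. On the slide with 2 SFA mice and LFA mouse 1, 9 of 10 genes were higher in LFA. On that with 2 SFA mice and LFA mouse 2, 10 of 10 were. LFA mice 3 and 4 were on the slide without SFA mice, so these within-slide differences leave them out. The mean level of the 10 genes was 1.56 and 1.69 in LFA mice 1 and 2, but 0.10 and -0.27 in LFA mice 3 and 4.

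In NTL against NTS, 0 of the 10 were called, where 7.58% of all tested probes were, although all 10 were higher on average (median log2 change 0.63, with -0.25 for all tested probes). Ly6g had an unadjusted p under 0.05, as did 25% of all tested probes, with a mean of -0.03 ± 0.67 (SD, n = 4) in NTS, a log2 change of 0.93 ± 0.37 (SE; limma adjusted p = 0.128) and groups that did not overlap (16% of all tested probes). With the slide as a block its change was 0.32. NTL and NTS shared only the slide of 8 arrays, with 1 NTL and 2 NTS mice. On it 9 of 10 genes were higher in NTL (median 0.31). Group and slide are thus largely confounded in this comparison, and with the slide as a block 2.08% of all tested probes were called. Mpo was 2.17 higher on the log2 scale in NTL, ± 1.34 (limma adjusted p = 0.327).

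LFA against NTL, at unequal doses, and the difference between the length effects of asbestos and nanotubes each had 0 members called and 0% of all tested probes called, with no member at an unadjusted p under 0.05 (1.54% and 3.46% of all tested probes). By group mean, LFA was the highest group for 7 genes, NTL for Ly6g and Elane and control for Ngp. NTS was the lowest for 6 genes. Of the neighbors in these orders that were compared, none differed beyond the spread between mice after adjustment.

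**Figure D3:**
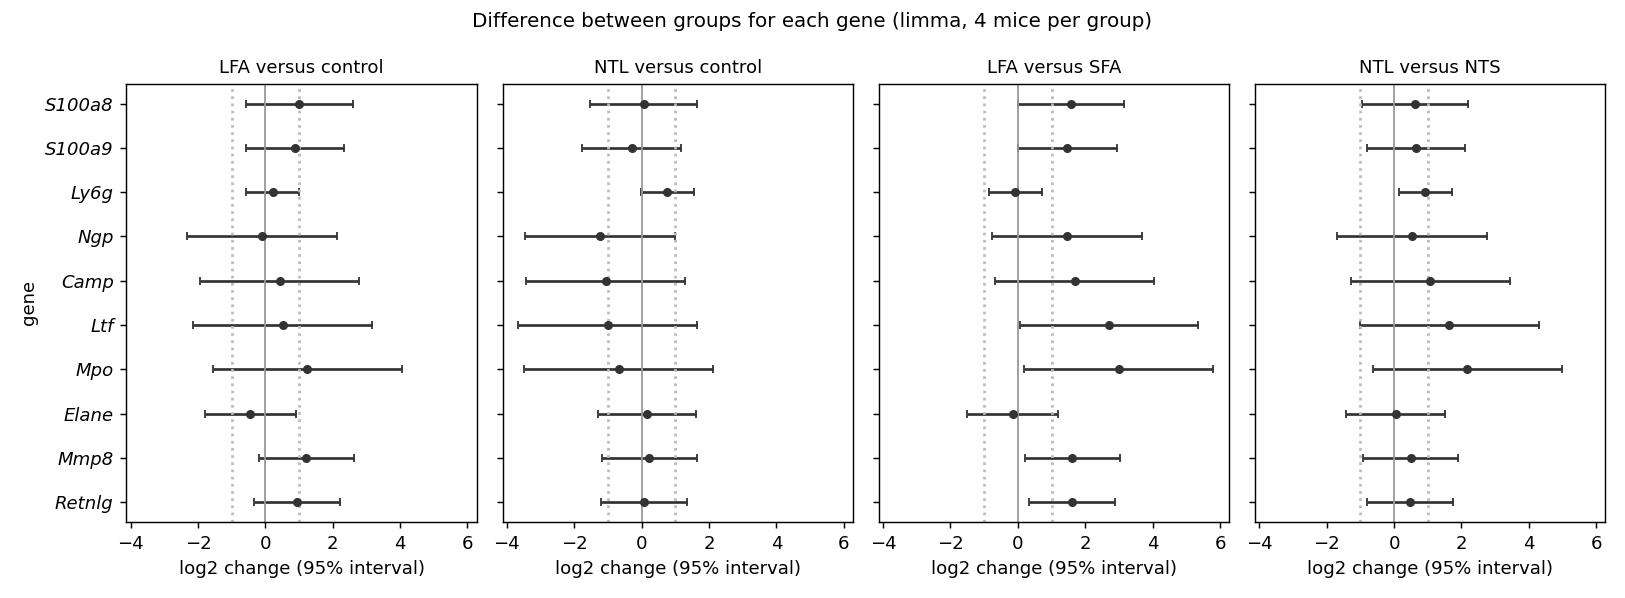
Log2 change of each gene (points) with its 95% interval from limma (bars) in 4 comparisons of 4 against 4 mice. Dotted lines mark a 2-fold change. The intervals in LFA against SFA lie above 0 for S100a9, Ltf, Mpo, Mmp8 and Retnlg before adjustment, and 0 of the 40 values shown passed it.

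Other genes of neutrophil biology were called in the same tissue. Of 18 tested genes for the surface and receptors of mature neutrophils, 8 rose in LFA and 8 in NTL against control, where 2.21% and 3.64% of all tested probes rose. None was called lower, and the median log2 changes were 1.32 and 1.63. Uncalled changes below 0 in LFA and NTL were those of Csf3r (-0.18 and -0.17), Mrgpra2a (-0.08 and -0.32), Mrgpra2b (-0.32 and -0.45) and Cd177 (-0.03 and -0.28). Of those that rose, the chemokine receptor Ccr1 was not well above background on any control array. Set against the lowest signal that was well above background on each control array, or the probe's own signal where higher, it was at least 1.77-fold higher in NTL. That bound is under the 2-fold of a call. The call rests on the measured log2 change of 2.43 (limma adjusted p = 0.00592). The list includes Ly6g, and several of its genes are shared with monocytes and macrophages. Clec4e, a C-type lectin receptor, had means of -3.64 ± 0.75 in control, 0.39 ± 0.93 in LFA and 0.13 ± 0.74 in NTL mice (SD, n = 4 each), log2 changes of 4.03 ± 0.45 and 3.77 ± 0.45 (SE; limma adjusted p = 0.000113 and 9.55e-05). Padi4, which citrullinates histones, rose by 3.27 ± 0.31 and 3.18 ± 0.31 (adjusted p = 3.08e-05 and 2.39e-05), and its 4 LFA and 4 NTL mice (1.57 to 2.26) were above every control mouse (-1.54 to -0.87). The cytokine Il1b rose by 3.74 and 3.38 (adjusted p = 0.00831 and 0.00791) and the formyl peptide receptor Fpr1 by 3.56 and 2.83 (adjusted p = 0.00375 and 0.00797). For these 4 genes r with S100a9 over the 20 mice was between 0.39 and 0.44.

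Of 10 tested primary granule genes, Lyz1 and Gusb rose in both long-fiber groups, and 0 were called lower. The rises were 1.21 and 1.39 (lysozyme) and 1.33 and 1.54 (beta-glucuronidase) on the log2 scale. Gusb is also made by macrophages, and r with S100a9 over the 20 mice was 0.35 for Lyz1 and 0.42 for Gusb. Ctsg, for which that r was 0.92, changed by 1.65 in LFA and 0.26 in NTL without being called (limma adjusted p = 0.186 and 0.876). In LFA, 1 of the 10 genes was called without control mouse 1 or 4 or LFA mouse 2 or 4. The other lysozyme gene, Lyz2, changed by 1.75 in LFA and 2.34 in NTL without being called (limma adjusted p = 0.162 and 0.0594). Prtn3, the protease encoded beside Elane, changed by 0.25 in LFA and 0.34 in NTL without being called. Of 24 tested secondary and tertiary granule genes, 4 rose in LFA (Cybb, Cyba, Itgb2 and Stfa2l1) and those 4 and Stfa3 in NTL. The count in LFA was 2 without control mouse 1 or 4 or LFA mouse 2 or 4, and that in NTL 3 without control mouse 1. Itgb2, the beta subunit of leukocyte integrins, rose by 1.92 and 2.39, and Cybb and Cyba, the membrane subunits of the phagocyte oxidase, by 1.66 and 2.0 and by 1.16 and 1.26. As genes of leukocytes and phagocytes, these are not confined to neutrophils, and r with S100a9 was 0.37 for Itgb2, 0.40 for Cybb and 0.42 for Cyba. Stfa2l1, a stefin, was not well above background on any control array (measured means -5.64 in control, -3.61 in LFA and -3.63 in NTL). By the same bound as for Ccr1, its rise was at least 2.89-fold with long asbestos fibers and at least 2.84-fold with long nanotubes. The measured log2 changes were 2.03 and 2.01 (limma adjusted p = 0.0248 and 0.0157). Lcn2, the secondary granule lipocalin, changed by 0.46 and 0.10 and was not called.

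S100a4, a calcium-binding protein of motile cells, was the only gene called against control of 13 other S100 and calprotectin receptor genes, and it rose by 1.73 in LFA and 1.87 in NTL (limma adjusted p = 0.038 and 0.0165). It was not called in LFA without control mouse 1, 3 or 4, LFA mouse 2, 3 or 4 or NTL mouse 4, nor in NTL without control mouse 1 or 4 or NTL mouse 2. Tlr4, a calprotectin receptor, was not called against control but was higher in NTL than in NTS by 1.15 (limma adjusted p = 0.0102). Of 8 transcription factors of granulocyte development, 0 were called in LFA and Runx1 in NTL against control (1.42, adjusted p = 0.0194), the latter not without control mouse 4 or NTL mouse 4. In NTL against NTS, 3 were higher, Gfi1 by 2.17, Runx1 by 1.92 and Myb by 1.5 (limma adjusted p = 0.0128, 0.00219 and 0.0275), where 7.58% of all tested probes were called. NTL and NTS shared only the slide of 8 arrays. In these calls, and in that of Tlr4, fiber length and slide cannot be fully told apart. Against control, Cebpe, needed for secondary granule genes, changed by 1.88 ± 0.92 in LFA and 1.08 ± 0.92 in NTL (limma adjusted p = 0.221 and 0.526). Gfi1, a transcriptional repressor, changed by 1.43 and 1.61 (adjusted p = 0.106 and 0.0601).

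**Figure D4:**
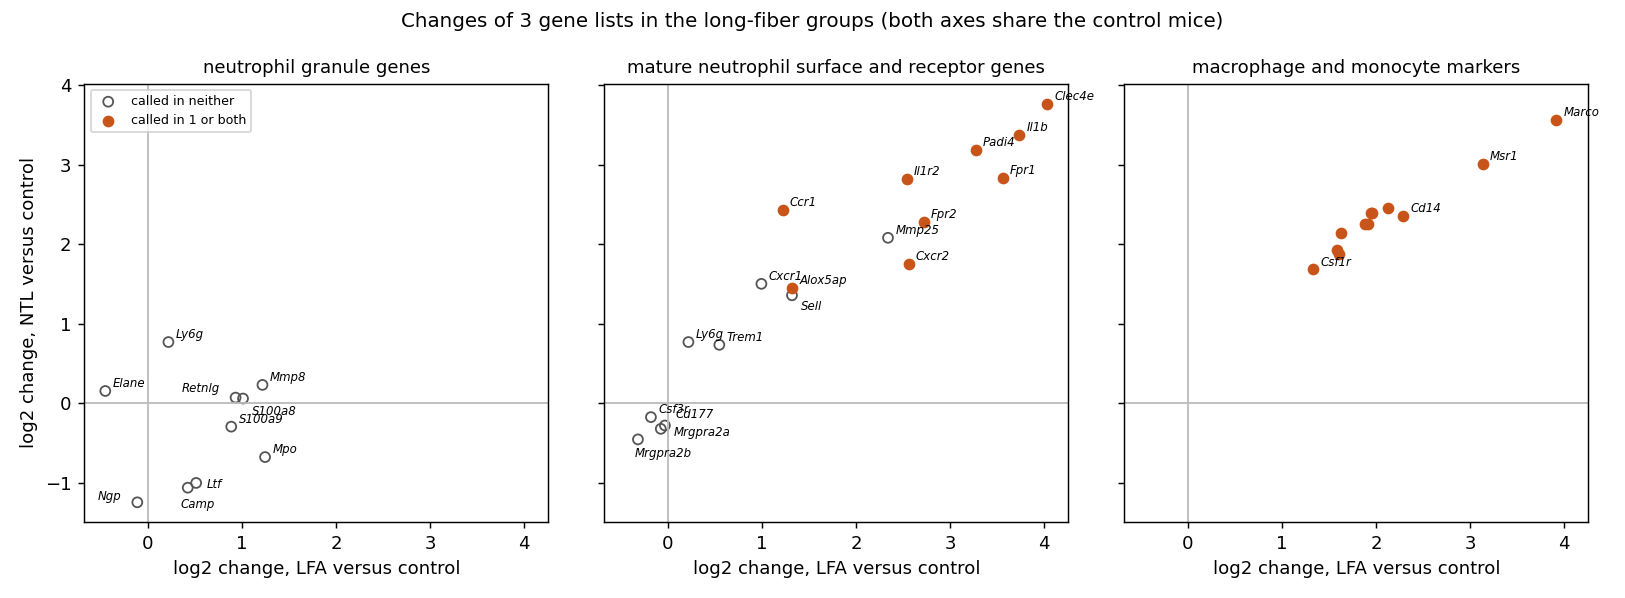
Log2 change in LFA (horizontal) and NTL (vertical) against the same control mice for the tested genes of 3 lists, filled where limma called the gene in 1 or both comparisons. The 10 granule genes are all open symbols, and all 12 macrophage and monocyte genes, of which only some are labeled, are filled.

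Markers of other cells moved with the groups, and their part in these results was not tested. Of 13 macrophage and monocyte markers 12 had a probe, 11 rose in LFA and 12 in NTL, and the mean level of the list was 1.24 to 1.68 in control, 1.32 to 2.11 in SFA, 3.15 to 3.94 in LFA, 1.06 to 1.73 in NTS and 3.69 to 3.96 in NTL mice. Its brightest probes, Csf1r and C1qc, rose by 1.33 and 1.60 in LFA and by 1.68 and 1.88 in NTL. Of 8 tested eosinophil markers, 1 rose in LFA and 2 in NTL (Ear1 and Ear2, the brightest), and the list ran from -3.67 to -2.37 in control, -2.71 to -1.22 in LFA and -2.81 to -2.0 in NTL mice. Among mast cell and basophil markers Hdc alone rose, and the brightest, Mcpt4 and Cpa3, changed by -0.42 and 0.68 in LFA. Hemoglobin and other blood markers, led by Hba-a2 and Hba-a1, ran from 3.96 to 4.51 in control, 2.66 to 4.06 in LFA and 2.96 to 3.61 in NTL mice. Of 10 tested, 0 were called in LFA and 2 fell in NTL, Alas2 by 1.43 and Slc4a1 by 2.22 on the log2 scale (limma adjusted p = 0.0484 and 0.0423), with a median log2 change of -1.06 over the list.

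Bone marrow cell markers, of which Cd34 was the brightest, were called in 0 of 7 tested genes in LFA and 1 (Flt3) in NTL, and Igll1 was not well above background on any array. Liver markers, led by Apoa2 and Serpina1a, ran from -2.42 to 8.46 over the 20 mice with 0 called. Skeletal muscle markers, led by Tnni2 and Acta1, were at 7.23 or more in every mouse in keeping with the labeled tissue, and 2 fell in LFA (Acta1 and Myh7) and 3 in NTL (Myh1, Myh7 and Tnnt3).

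The level of S100a9, and of Mpo, was set against 8 such measures, the array's brightness and its share of spots above background, 20 relations in all, of which 3 passed adjustment. S100a9 passed adjustment with the bone marrow list (r = 0.76, rho = 0.75, permutation p = 8e-05 for r, adjusted p = 0.0016, and r = 0.71 without the 2 mice farthest from the median, 0.81 and 0.81 within the slides of 8 and 7 arrays). That list holds Ctsg and Prtn3, which are granule genes themselves, and without them r was 0.42 (rho = 0.41, permutation p = 0.0693). Mpo gave r = 0.72 with the whole list (rho = 0.74, permutation p = 0.00037, adjusted p = 0.0037) and 0.32 without those genes (permutation p = 0.173). S100a9 with the eosinophil list gave r = 0.59 (rho = 0.51, permutation p = 0.00615, adjusted p = 0.041), but 0.41 without the 2 farthest mice and 0.21 within the slide of 7 arrays, where the slide of 8 gave 0.87. Array brightness gave r = 0.51 with Mpo (rho = 0.60, permutation p = 0.0223, adjusted p = 0.089) and 0.41 with S100a9 (rho = 0.44, permutation p = 0.0728, adjusted p = 0.16). Without the 2 farthest mice these were 0.72 and 0.54. Within the slides of 8 and 7 arrays they were 0.64 and 0.10 for Mpo and 0.43 and 0.20 for S100a9. The part of array brightness in the shared variation was not tested. The macrophage and monocyte list gave r = 0.40 with both genes (adjusted p = 0.16 for each), and the hemoglobin, liver and muscle lists lay between -0.30 and -0.11.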

How the data were processed

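RNA from the diaphragm of each of 20 mice was labeled with Cy3 and hybridized by the authors to a 60K mouse array. The deposited scanner files hold, per the file headers, a background-subtracted intensity for each spot (Agilent Feature Extraction 10.7.3.1). A second deposited file holds log2 values that the authors normalized in GeneSpring and joined by group, and it served as an alternative with no test.

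Outlier spots (92 to 204 per array) were left out, 0 were saturated, spots of a probe were averaged, and the array's 75th percentile (an intensity of 292 to 991) was subtracted on the log2 scale. Probes well above background on at least 4 of 20 arrays were tested with limma 3.58.1 in R 4.3.3, in 1 model with a mean per group, on all 36920 probes, with Benjamini-Hochberg adjustment. A call needed a log2 change of at least 1 and an adjusted p under 0.05. Tests of correlation used 100000 permutations in Python 3.11.15 with numpy 2.4.6 and scipy 1.17.1, and figures matplotlib 3.10.9. Alternatives were quantile normalization, normexp background correction, other filters, blocks for slide and replicate number, the methods' test and leaving out each array. Precision is limited by 4 mice a group, and the labels do not say whether mice shared a cage.

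All 10 members are named by their brightest probe, with the 3 genes most similar to S100a9, Ngp, Retnlg and Mpo, the called genes of each pathway list (the 4 with the largest mean change where over 4) and the 2 brightest probes of each marker list. One gene that this rule would name is not reported here. Others named for contrast, such as Prtn3, Lcn2, Cebpe and Gfi1, were chosen after their values were seen. The limma steps were tested on simulated data with each probe's own spread. There, a log2 change of 1.5 in LFA was called for 27.5% of the changed probes, and a change of 2 for 53%. These probes were drawn from all tested probes, whose median within-group SD was 0.58, where that of the members was 1.10. The shares are therefore too high for the members with a wider spread, for which none was simulated. A member that was not called may thus still have changed. The members and lists were chosen with earlier results of these data known. The correlations between members were added after their values were seen. Promoters are RefSeq's, read for GRCm38.p6, and probe positions are the array's, on NCBI37. The scan runs match the 3 slides 1 to 1. Each slide holds several groups, but unevenly. The slide of 5 arrays has 0 SFA and 0 NTL mice, and that of 7 arrays has 0 NTS and 3 NTL mice. NTL and NTS thus share only the slide of 8 arrays, with 1 NTL and 2 NTS mice.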

Additional observations from a re-analysis of the deposited data

Results flagged for a closer look

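Of 49 sets of 4 mice (a gene in a group), 1 was flagged because a single mouse stood far from the others. Camp in NTS mouse 4 had a log2 level of 1.82, and the other 3 NTS mice lay between -1.56 and -1.02. Chance flags about 1 in 20 such sets, so 1 of 49 is no more than that. The same mouse was the highest of its group for 8 of the 10 genes and the lowest for Ly6g and Elane.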

How the results depend on the processing

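Under every alternative run (quantile normalization, normexp, no filter, a filter on all arrays, slide as a block, replicate block, the compared groups alone, the methods' test, the mean of a gene's probes, and leaving out each array), 0 of the 10 genes were called in any of the 8 comparisons, and the smallest adjusted p of a member was 0.0562 (Ly6g, NTL against NTS, normexp). With the filter on all arrays, only 5 of the 10 genes were tested, so the others could not be called there. Replicate numbers do not pair the mice: deviations of same-numbered mice correlated from -0.68 to 0.69, over 0.1 in 14 of 40 pairs, and with the replicate block 0 members were called. The 28 correlated pairs were 27 to 28 under the alternatives added after seeing the data.

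Several uncalled changes turned sign, which 4 mice a group cannot settle, and the cause was not tested. Against control, Ngp in LFA was 0.088 with quantile normalization, and in NTL S100a9 was 0.023 with it and Mmp8 -0.26 with normexp. With the slide as a block, NTL against control was -0.29 for S100a8, -0.29 for Retnlg and -0.21 for Elane, and LFA against SFA was 0.46 for Ly6g and 0.43 for Elane. The replicate block gave -0.017 for Elane in NTL. Leaving out 1 mouse moved LFA against control from -0.061 to 0.51 for Ly6g, -1.02 to 0.72 for Ngp, -0.21 to 1.13 for Camp and -0.058 to 1.30 for Ltf. It moved NTL against control from -0.59 to 0.60 for S100a8, -0.84 to 0.20 for S100a9, -1.40 to 0.089 for Mpo, -0.74 to 0.82 for Elane, -0.27 to 0.63 for Mmp8 and -0.55 to 0.57 for Retnlg. For LFA against SFA it ran from -0.36 to 0.21 for Ly6g and -0.65 to 0.21 for Elane, and the other 8 genes stayed higher in LFA in every setting with a test. The authors' table gave differences of group means without calls.

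The shares of all tested probes called, beside which the members' counts stand, rested on single mice. For LFA against control the 3.96% ran from 1.26% without LFA mouse 2 to 7.26% without NTS mouse 4, and moved by over 1.5 times also without control mouse 1 or 4 or LFA mouse 1 or 4. The 6.8% of NTL against control fell to 3.79% without NTL mouse 4 and moved as far without NTL mouse 1. LFA against SFA had 0.42% without LFA mouse 2, and moved as far without SFA mouse 2 or 3 or LFA mouse 4. NTL against NTS ran from 4.65% without NTL mouse 2 to 14.7% without NTS mouse 4, moved as far without NTS mouse 2 or 3 or NTL mouse 4, and was 2.08% with the slide as a block. The 8 mature neutrophil genes called were 6 to 9 in LFA and 8 to 10 in NTL without 1 mouse, and 4 in each among probes above background on all arrays, where fewer were tested. The macrophage markers were 9 to 12 and 12 without 1 mouse, and 6 in LFA with the compared groups alone. The single eosinophil and bone marrow markers called in LFA and NTL were each lost without some of the mice.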
